A study of Mus musculus with 6 samples.

Results

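ATF4 is the transcription factor that carries out the integrated stress response, and the 35 genes described here are ATF4 itself, its partners and targets, and the enzymes and carriers through which it keeps cells supplied with amino acids. The members are a list of gene names, drawn up with earlier results of these data known, and each symbol was matched to an Ensembl identifier of the deposited table, which holds 55414. RNA was sequenced from 3 VC and 3 control samples of TM4, a mouse testis line that serves as a model of Sertoli cells. The labels disagree on the agent: titles point to vitamin C, but valine is named elsewhere, so the group is called VC here. The other group is labelled only as control, all 6 libraries come from the 1 male line, and the labels used here give no dose, exposure time, vehicle or separate cultures. The p-values therefore reflect spread among these libraries, possibly technical.

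Cells slow the initiation of translation when kinases phosphorylate eIF2: GCN2, encoded by Eif2ak4, responds to uncharged tRNA, and PERK, encoded by Eif2ak3, to unfolded protein in the endoplasmic reticulum. ATF4 protein is then made more efficiently from its existing mRNA, pairs with C/EBP proteins and binds composite C/EBP-ATF response elements (CAREs) in genes for amino acid synthesis, amino acid import and the stress outcome. A change in ATF4 activity may therefore leave Atf4 mRNA alone, and targets are read beside it. In the testis, Sertoli cells supply nutrients to the germ cells they surround.

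The libraries held 20408425 to 22316852 reads over genes of known length, and values are on a transcripts-per-million-like scale, so levels of different genes are compared per length. Of 12 Sertoli markers, 6 passed the filter, Gata4 and Sox9 among them, while the defining markers Wt1, Fshr and Dmrt1 were at 0 in all 6 libraries. The 12 summed to 30.3 to 33.4 in VC and 27.4 to 28.6 in control, and 7 germ cell markers to 2.10 to 2.60 in VC and 1.49 to 2.20 in control. Most of the Sertoli sum was Gata4, at 21.8 ± 0.442 in VC and 19.2 ± 0.631 in control (limma adjusted p = 0.139). Amh, Dhh, Rhox5 and Inha, which also passed, were low, with means of 0.659 to 2.78 in VC and 0.975 to 2.13 in control. The 5 macrophage markers summed to 60.5 to 70.6 in VC and 55.45 to 65.3 in control, mostly from Cd14. The 4 peritubular myoid markers summed to 470.4 to 489.5 in VC and 721 to 798 in control, and Acta2 and Actg2 of these fell (limma adjusted p = 0.0111 and 0.0348). Control replicate 3 stood apart, with a chi-square per degree of freedom of 9.57 to 17.2 against the other libraries, compared with 2.78 to 7.28 for pairs without it. Ribosomal protein genes (79 tested, median log2 difference -0.12) and mitochondrially encoded genes (15 tested, median -0.12) lay below control, and 0 of either passed limma. The ribosomal median was -0.06 without control replicate 3 and -0.04 with equal totals, and the mitochondrial one -0.12 and -0.04. The part of these features in the differences below was not tested.

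All 35 genes passed the expression filter, which asked for 3 libraries at 1 or above, and none passed the test. With limma and Benjamini-Hochberg adjustment over 13972 tested genes, 0 of the 35 had an adjusted p under 0.05, against 0.687% of all tested genes (0.429% on the higher side), and the smallest adjusted p was 0.102, for Ddit3. At an unadjusted p under 0.05 there were 8 genes on the higher side, against 9.05% of all tested genes, and 2 on the lower side, against 8.2%. Limma-voom on reads recovered from the values also called 0 of the 35, against 3.98% of all genes. At an unadjusted p under 0.05 voom had 11 of the 35, where it had 2752 of 13772 tested genes. The differences were small. The kinases and stress effectors (median 0.13), transcription factors (median 0.14) and transporters (median 0.11) lay mostly above control, whereas 5 of 8 synthesis enzymes lay below it (median -0.04), beside a median of 0.01 over all tested genes on the log2(value + 1) scale. These medians describe the lists and carry no test. In a bulk culture, fewer cells that make a transcript and less transcript per cell cannot be told apart.

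In 10 of the 35 genes, or 28.6%, all 3 VC values lay above all 3 control values, against 13.9% of all tested genes, and in 2 all VC values lay below, against 11.6%. Without control replicate 3 these counts were 14, against 19.9%, and 3, against 17.3%. The 10 were Atf5, Ddit3, Slc7a11, Slc7a3, Slc38a2, Ppp1r15a, Trib3, Chac1, Sesn2 and Stc2, and the 2 were Psat1 and Slc7a5. Leaving out control replicate 3 made the log2 difference smaller for Slc7a11 (0.17), Slc38a2 (0.11), Trib3 (0.14), Sesn2 (0.10) and Stc2 (0.15). It became larger for Atf5 (0.25), Ddit3 (0.28), Slc7a3 (0.19), Ppp1r15a (0.28) and Chac1 (0.27).

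**Figure D1:**
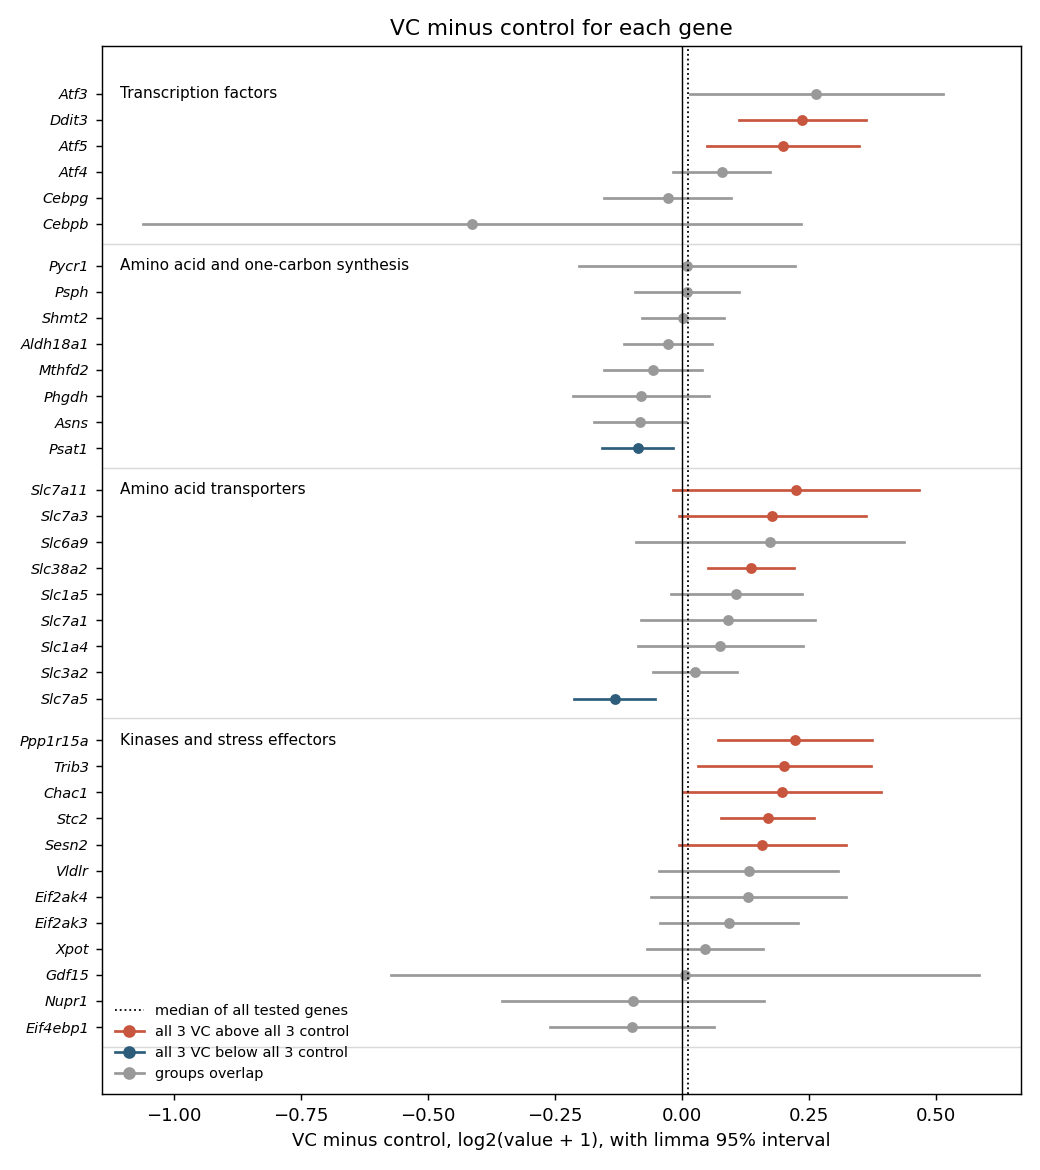
VC minus control for each of the 35 genes on the log2(value + 1) scale (x axis), by class, with points for the estimate and bars for limma's 95% interval; the dotted line is the median of all tested genes, 0.01. Red marks the 10 genes whose 3 VC values all lay above control, blue the 2 (Psat1 and Slc7a5) whose VC values all lay below, and grey the genes whose groups overlap.

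CAREs near the start of transcription are the feature by which many of these genes are recognised. Promoters are shown here because the letters of the element occur unevenly in them. RefSeq promoter windows (build GRCm38.p6, 250 bases before to 50 after the start) were at hand for 31 of the 35. The letters TGATGNAA were searched on both strands, so that a site on the other strand reads TTNCATCA. They were found for 9 of the 31 genes, against 4.51% of the 27025 genes with a window and 2.59% of the 9000 such genes that were tested here. A match of letters is a description and not a bound site, and some of these genes are known as ATF4 targets through such elements. Whole windows follow for the 3 genes with a match whose VC values all lay above control. That of Asns, encoding asparagine synthetase, whose values did not, is given too, with each match in capitals.
Chac1, chr2:119350992-119351291, plus strand: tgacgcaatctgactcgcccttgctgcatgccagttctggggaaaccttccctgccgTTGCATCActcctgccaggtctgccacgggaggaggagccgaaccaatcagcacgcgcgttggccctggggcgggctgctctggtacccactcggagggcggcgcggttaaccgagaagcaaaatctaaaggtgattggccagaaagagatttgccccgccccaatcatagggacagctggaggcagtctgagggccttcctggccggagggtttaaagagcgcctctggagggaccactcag
Trib3, chr2:152344011-152344310, minus strand: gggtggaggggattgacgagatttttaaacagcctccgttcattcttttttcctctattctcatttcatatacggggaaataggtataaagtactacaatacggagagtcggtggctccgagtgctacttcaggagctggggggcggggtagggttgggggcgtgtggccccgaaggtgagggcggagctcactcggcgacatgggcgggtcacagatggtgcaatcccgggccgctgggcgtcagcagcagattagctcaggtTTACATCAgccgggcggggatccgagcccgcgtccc
Slc7a11, chr3:50443564-50443863, minus strand: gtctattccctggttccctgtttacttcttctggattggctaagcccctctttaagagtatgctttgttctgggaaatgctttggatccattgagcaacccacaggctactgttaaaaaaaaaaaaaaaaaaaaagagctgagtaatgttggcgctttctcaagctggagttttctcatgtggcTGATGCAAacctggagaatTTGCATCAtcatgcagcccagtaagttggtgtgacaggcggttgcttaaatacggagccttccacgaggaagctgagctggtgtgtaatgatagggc
Asns, chr6:7693160-7693459, minus strand: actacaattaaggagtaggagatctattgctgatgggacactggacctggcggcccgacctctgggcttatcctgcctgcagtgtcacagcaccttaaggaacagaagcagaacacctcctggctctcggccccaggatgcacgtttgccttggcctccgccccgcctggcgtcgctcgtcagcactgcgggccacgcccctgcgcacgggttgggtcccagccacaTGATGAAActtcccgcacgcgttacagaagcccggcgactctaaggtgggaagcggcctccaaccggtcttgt

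The Slc7a11 window alone held 2 matches, 1 on each strand, at -66 to -59 and -47 to -40 from the start of transcription. The match lay at -193 to -186 in Chac1, at -23 to -16 in Asns and at 15 to 22, inside the transcript, in Trib3. The other 5 genes are shown by the 30 bases around the match, since their cores are alike.
Atf3, chr1:191183425-191183454, minus strand: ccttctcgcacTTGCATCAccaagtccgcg
Nupr1, chr7:126625562-126625591, minus strand: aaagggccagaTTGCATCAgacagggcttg
Pycr1, chr11:120643833-120643862, minus strand: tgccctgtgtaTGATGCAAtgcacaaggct
Slc1a4, chr11:20332699-20332728, minus strand: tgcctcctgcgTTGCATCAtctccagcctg
Vldlr, chr19:27216809-27216838, plus strand: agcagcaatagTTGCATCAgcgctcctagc

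All 5 of these hold the core TGATGCAA on 1 strand or the other, as Chac1 and Slc7a11 do, whereas Asns holds TGATGAAA and Trib3 reads TTACATCA. The 9 genes with a match had a median log2 difference of 0.13 (from -0.10 to 0.27). Of these 9, 3 separated upward and 0 downward, where 13.9% of all tested genes separated upward and 11.6% downward. The 22 genes whose window lacks the letters had a median of 0.06 (from -0.41 to 0.24), with 6 separated upward and 1 downward. The ranges of the sets with and without a match in the window overlapped. CAREs outside these windows or with other letters were not searched, so a gene without a match may still carry one. The palindromic CRE, TGACGTCA, occurred in 1 of the 31, Ppp1r15a, and in 2.03% of all genes with a window and 3.77% of those tested.

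Among the transcription factors, Atf4 mRNA (ENSMUSG00000042406) was abundant, and its groups overlapped. Its values were 442, 465 and 450.0 in VC, against 419, 418 and 448 in control. Control replicate 3 alone reached the VC range. The difference was 0.08 (SE 0.040, limma adjusted p = 0.363), with an interval from -0.02 to 0.17. Atf5, which encodes a relative of ATF4 controlled in the same way at translation and tied to the mitochondrial stress response, was at 122, 129.6 and 132 in VC and 102, 113 and 119.6 in control. These groups did not overlap, and the difference was 0.20 (SE 0.063, limma adjusted p = 0.189).

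Ddit3 (ENSMUSG00000025408), which encodes CHOP, a factor that ATF4 induces and that promotes cell death under prolonged stress, gave the smallest p of the set. Its values were 44.5, 42.6 and 41.5 in VC, against 34.5, 35.6 and 38.5 in control. The lowest VC library lay above the highest control library, on 562 to 625 reads in VC and 458 to 548 in control. The difference was 0.24 (SE 0.053, interval 0.11 to 0.36), with a limma adjusted p of 0.102. Scaling the libraries to equal totals brought its adjusted p to 0.0293 with a difference of 0.31, where all tested genes had a median of 0.08, and limma's library weights brought it to 0.0451; these settings called 1.55% and 1.82% of all tested genes. A second identifier that carries the symbol Ddit3, ENSMUSG00000116429, was at 0 in every library. Ddit3 shares 68 exon bases (3.97%) with Mars on the opposite strand, a gene with values up to 137, and Atf5 shares 82 (4.11%) with Nup62.

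Atf3, a stress-induced repressor downstream of ATF4, was at 16.1, 15.6 and 17.1 in VC and 11.5, 15.7 and 13.2 in control. Only control replicate 2 reached into the VC range. The difference of 0.27 was the highest of the 35 on the log2(value + 1) scale (SE 0.105, limma adjusted p = 0.265). That scale shrinks the differences of low genes, and by the ratio of group means Slc7a11 (1.214) stood above Atf3 (1.209). The Atf3 difference was 0.17 without control replicate 1 and 0.37 without control replicate 2, the lowest and the highest with 1 library left out. Of the C/EBP partners, Cebpg had overlapping groups, at 25.4 ± 1.22 in VC and 25.9 ± 0.978 in control (SD, n = 3 each). Cebpb, which encodes C/EBP-beta, had the lowest difference, -0.41 (SE 0.273, limma adjusted p = 0.481), with 8.27, 7.59 and 7.02 in VC, against 17, 6.94 and 9.53 in control. The VC values lay inside the control range, control replicate 1 being far above the rest, and without that library the difference was -0.09. A stretch of 312 exon bases, 20.7% of Cebpb, is shared with Tmem189 on the opposite strand, and no source used here says that reads were assigned by strand.

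**Figure D2:**
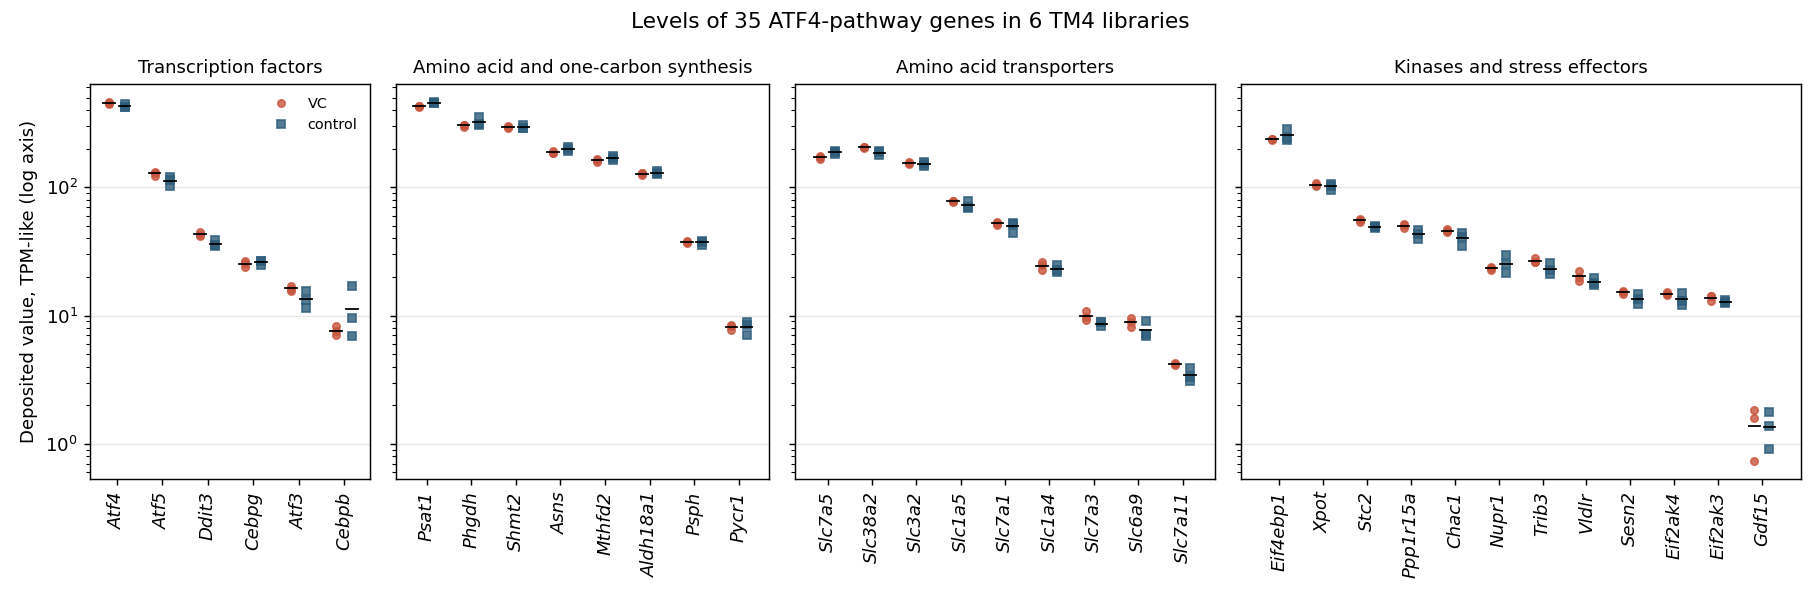
Deposited value (log axis) of each gene in the 3 VC libraries (red circles, left of each pair) and the 3 control libraries (blue squares, right), with a line at each group's mean, by class and ordered by the control mean. Psat1 (424 to 462) and Atf4 (418 to 465) are the most abundant and Gdf15 the least at 0.738 to 1.82, while the distance between groups is small beside the range between genes.

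The synthesis enzymes were among the most abundant genes of the set, and 6 of the 8 fall in the highest of 4 equal bins of tested genes by level. That bin as a whole had a median log2 difference of -0.04, as did this class (-0.04). The same bin also holds 5 of 9 transporters, 5 of 12 stress effectors and 2 of 6 factors, classes with medians of 0.11, 0.13 and 0.14. The class median came to 0.03 with libraries scaled to equal totals. Psat1 (ENSMUSG00000024640), encoding phosphoserine aminotransferase of the serine pathway, was at 432, 424 and 429 in VC, against 451, 452 and 462 in control. All VC values lay below all control values, with a log2 difference of -0.09 (SE 0.029, interval -0.16 to -0.02, limma adjusted p = 0.213) that was -0.01 with equal totals.

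The remaining steps of serine synthesis did not separate. Phgdh, encoding the first enzyme, was at 303 ± 5.91 in VC and 321 ± 24.9 in control, and control replicate 3, at 349.7, was the one high library. Psph, encoding the last, was at 37.5 ± 0.887 in VC and 37.2 ± 1.38 in control, though 452 exon bases (10.4% of the gene) are shared with Cct6a on the opposite strand, a gene with values up to 666. The mitochondrial one-carbon enzymes Shmt2 (294 ± 3.66 in VC, 294 ± 8.78 in control) and Mthfd2 (162 ± 3.94 in VC, 169 ± 6.90 in control) had overlapping groups, with intervals of -0.08 to 0.08 and -0.15 to 0.04. The intervals of both hold 0 and are narrow beside the differences of Ddit3 or Atf3.

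Asns, which makes asparagine and is a standard ATF4 reporter, was at 192, 183 and 185 in VC, against 197, 191 and 205 in control. The groups met at 1 library each, and the difference was -0.08 (SE 0.038, interval -0.17 to 0.01, limma adjusted p = 0.328), with -0.01 at equal totals. The proline enzymes Aldh18a1 (127 ± 3.23 in VC, 129.8 ± 3.48 in control) and Pycr1 (8.16 ± 0.368 in VC, 8.11 ± 0.910 in control) overlapped as well. Of the 8 enzymes none had VC values wholly above control.

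Transporters gave separations in both directions. Slc38a2 (ENSMUSG00000022462), encoding SNAT2, a sodium-coupled carrier of small neutral amino acids induced when amino acids run short, was at 204, 203 and 207 in VC, against 191, 189 and 179 in control. The groups did not overlap, on 13836 to 14806 reads in VC and 13082 to 13268 in control, and the difference was 0.14 (SE 0.036, interval 0.05 to 0.22, limma adjusted p = 0.133). Slc7a11, the cystine carrier xCT, was low, at 4.27, 4.11 and 4.21 in VC and 3.93, 3.34 and 3.10 in control, a difference of 0.23 (SE 0.102, limma adjusted p = 0.316). Slc7a3, a cationic amino acid carrier, was at 10.9, 9.19 and 9.68 in VC and 8.22, 8.84 and 8.85 in control, a difference of 0.18 that was 0.12 without VC replicate 1. In these last 2 genes the groups separated by less than the spread within the wider group.

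Slc7a5 (ENSMUSG00000040010) encodes LAT1, which exchanges large neutral amino acids, valine among them, and was the only transporter with a difference below 0. Its values were 174, 171 and 167 in VC, against 187, 191 and 183 in control. All VC values lay below control, with a difference of -0.13 (SE 0.034, interval -0.21 to -0.05, limma adjusted p = 0.130). The difference was -0.15 without control replicate 3 and -0.06 with equal totals, where all genes had a median of 0.08. Slc3a2, the heavy chain 4F2hc that carries LAT1 and xCT to the membrane, was at 155 ± 1.83 in VC and 152 ± 4.84 in control. The ratio of Slc7a5 to Slc3a2, which library scaling does not alter, was 1.125, 1.12 and 1.07 in VC, against 1.275, 1.257 and 1.171 in control. The ratio of Slc7a11 to Slc3a2 was 0.0276, 0.0269 and 0.0270 in VC, against 0.0268, 0.0219 and 0.0198 in control. VC was lower in the first ratio (plain log2 difference -0.16, without the added 1) and higher in the second (0.26). Neither pair of groups overlapped, though in the second ratio they nearly met. Slc7a5 and Slc7a11 separated in these directions on their own, and Slc3a2 differed by 0.03, so the ratios add no separate support. Both ratios were chosen after the values were seen and are given without a test.

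The other 4 transporters that overlapped were Slc7a1, the cationic carrier CAT1, Slc1a4 and Slc1a5, the neutral carriers ASCT1 and ASCT2, and Slc6a9, the glycine carrier GLYT1, with differences of 0.08 to 0.17. Slc6a9 shares 1429 exon bases (27.8%) with Ccdc24 on the opposite strand, a gene at 0.326 at most. Slc1a5 was at 78.6, 76.8 and 77.6 in VC, against 68.6, 69.5 and 78.2 in control, and only control replicate 3 reached the VC values. For Slc7a1 the same library was the low one, at 43.8 against 51.1 to 53.9 in VC and 51.8 and 52.6 in the other control libraries, and without it the difference was 0.01 in place of 0.09. Control replicate 3 lay toward VC for Slc1a5 and away from it for Slc7a1.

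**Figure D3:**
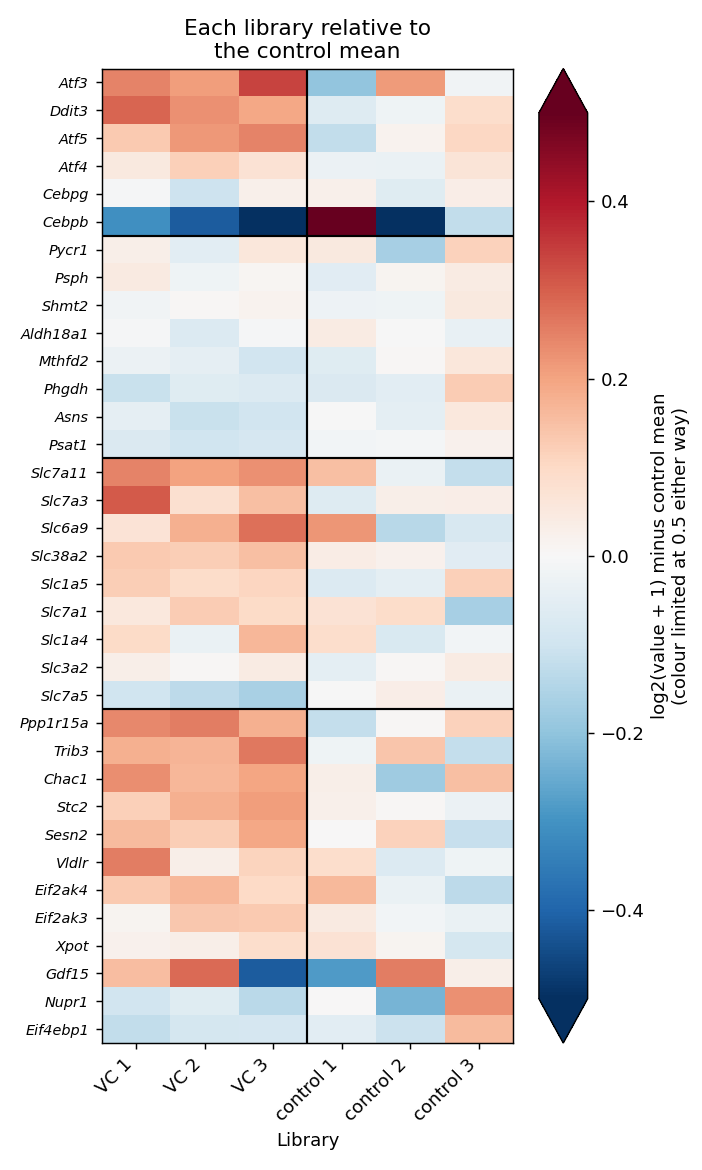
Each gene (rows, by class) in each library (columns, VC left of control) as log2(value + 1) minus that gene's mean over the control libraries, red above and blue below, with the colour limited at 0.5. The stress effector and transporter rows are mostly red in the 3 VC libraries, the synthesis rows are pale, and Cebpb and Gdf15 vary between libraries of 1 group.

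The kinases at the head of the pathway did not separate. Eif2ak3 was at 13.7 ± 0.687 in VC and 12.8 ± 0.387 in control, and Eif2ak4 at 14.7 ± 0.365 in VC and 13.4 ± 1.53 in control (limma adjusted p = 0.453 for each). Ppp1r15a (ENSMUSG00000040435), encoding GADD34, the phosphatase subunit that ATF4 and CHOP induce and that restores translation, was at 50.8, 51.3 and 48.5 in VC, against 39.3, 43.0 and 46.5 in control. The groups did not overlap, and the difference was 0.22 (SE 0.064, interval 0.07 to 0.38, limma adjusted p = 0.157). Its constitutive relative Ppp1r15b was at 54.8 ± 0.219 in VC and 52.4 ± 3.45 in control, and was named after its values were seen.

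Trib3, a pseudokinase that holds back ATF4 and CHOP, was at 26.2, 26.1 and 27.9 in VC and 22.7, 25.5 and 21.2 in control (difference 0.20, SE 0.072, limma adjusted p = 0.228). Chac1, a glutathione-degrading enzyme induced by ATF4, was at 46.9, 44.8 and 45.8 in VC and 40.6, 35.04 and 44.3 in control (difference 0.20, SE 0.082, limma adjusted p = 0.280). Sesn2, a leucine-binding inhibitor of mTORC1, was at 15.1, 14.8 and 15.6 in VC and 13.5, 14.7 and 12.4 in control (difference 0.16, SE 0.069, limma adjusted p = 0.303). In each of these 3 genes the VC values were close together and the nearest control library lay just below them. The Chac1 difference was 0.11 without control replicate 2, and the Sesn2 difference 0.10 without control replicate 3.

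Stc2 (ENSMUSG00000020303), encoding the secreted glycoprotein stanniocalcin 2, separated more widely. It was at 53.4, 55.7 and 56.8 in VC, against 49.9, 49.2 and 48.1 in control, a difference of 0.17 (SE 0.039, interval 0.08 to 0.26, limma adjusted p = 0.107). Leaving out any 1 library kept the difference between 0.15 and 0.19. Vldlr, the lipoprotein receptor induced by ATF4 under endoplasmic reticulum stress, was at 20.2 ± 1.72 in VC and 18.3 ± 1.10 in control, with overlapping groups.

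The other effectors overlapped. Eif4ebp1, encoding the translation repressor 4E-BP1 and the most abundant effector, was at 232, 238 and 238 in VC, against 243, 234 and 282 in control. Its difference of -0.10 was -0.02 without control replicate 3. Nupr1, a stress-induced chromatin protein, was at 23.4 ± 0.613 in VC and 25.3 ± 4.18 in control, with a difference of -0.10 that was 0.02 without control replicate 3. Xpot, the nuclear exporter of tRNA, was at 105 ± 2.81 in VC and 102 ± 5.69 in control. Gdf15, a secreted stress hormone often used as an ATF4 readout, was near the filter at 1.58, 1.82 and 0.738 in VC and 0.906, 1.77 and 1.37 in control. It rested on 11 to 26 reads per library. Its interval of -0.57 to 0.59 is on the log2(value + 1) scale, which shrinks differences at such low values. A difference inside that interval cannot be told from 0 here.

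The level of a gene and its exon length moved with the difference across the whole table. The median log2 difference was -0.04 in the shortest of 4 equal bins of genes and 0.05 in the longest, and 0.04 in the lowest bin by level. Without control replicate 3 these medians shrank to -0.020, 0.019 and 0.025. Median exon length was 2074 bases for the factors, 3711 for the synthesis enzymes, 4173 for the transporters and 3206 for the stress effectors, against 3627 for all tested genes. The part of length and level in the class medians was not tested.

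Beyond the 35, 5 lists of related genes were read in the same fit. They too were drawn up with earlier results of these data known, so their counts are descriptions; of all tested genes, limma called 0.687%, 17.2% had an unadjusted p under 0.05 and voom called 3.98%. For eIF2, its other kinases and its exchange factor, 0 of 21 tested genes passed limma (4 at an unadjusted p under 0.05; voom called 2), with a median of -0.01. Impact, which encodes an inhibitor of GCN2 activation, was at 63.2, 61.9 and 65.8 in VC and 51.9, 54.5 and 49.8 in control (difference 0.29, limma adjusted p = 0.0538). Eif2ak2, encoding the double-stranded RNA kinase PKR, which interferon also induces, was at 35.6 ± 1.51 in VC and 27.3 ± 2.60 in control (limma adjusted p = 0.0777). Ppp1cc, a catalytic phosphatase subunit, was at 214 ± 1.95 in VC and 241 ± 11.8 in control, and Eif2s2, the eIF2 beta subunit, at 154 ± 3.81 in VC and 170.0 ± 5.26 in control.

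Of ATF4 partners and other reported ATF4 targets, 44 of 45 entries were matched, 38 were tested and 0 passed limma (9 at an unadjusted p under 0.05; voom called 2), with a median of 0.03. Ndrg1 was at 19.5 ± 1.09 in VC and 15.1 ± 0.673 in control (limma adjusted p = 0.0633) and Sqstm1, the autophagy receptor p62, at 286 ± 6.93 in VC and 249.8 ± 9.43 in control (adjusted p = 0.0872). On the lower side were Snai2, a repressor of epithelial genes, at 34.1 ± 1.43 in VC and 40.5 ± 1.21 in control, and Atg3, the LC3-conjugating enzyme, at 27.0 ± 0.211 in VC and 31.6 ± 1.601 in control.

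Among other genes of serine, glycine, one-carbon and amino acid synthesis, 0 of 33 tested genes passed limma (9 at an unadjusted p under 0.05; voom called 2), with a median of -0.02. Aldh1l2, the mitochondrial formyltetrahydrofolate dehydrogenase, was at 40.8 ± 2.55 in VC and 31.6 ± 2.44 in control (limma adjusted p = 0.0795). Mthfd2l, a relative of Mthfd2, was at 6.24 ± 0.436 in VC and 7.60 ± 0.323 in control, and Glul, the glutamine synthetase, at 17.2 ± 0.790 in VC and 19.3 ± 0.257 in control.

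Genes that passed the test were found in the other amino acid transporters and in amino acid sensing. Of 40 transporters, 16 were tested and 3 rose, with a list median of 0.14. At an unadjusted p under 0.05 there were 5 higher and 0 lower, against 9.05% and 8.2% of all tested genes. Over all tested genes 0.429% were called higher, and since the list was not chosen blind to these data, the comparison supports nothing about transporters as a group. Ctns, encoding cystinosin, which exports cystine from the lysosome, rose to 59.4, 59.4 and 57.9 in VC, against 39.9, 42.5 and 41.6 in control (0.50, SE 0.038, limma adjusted p = 0.0111). Slc38a7, a lysosomal exporter of glutamine and asparagine, rose to 21.0, 19.98 and 19.4 in VC, against 13.5, 15.5 and 13.7 in control (0.48, SE 0.066, limma adjusted p = 0.0375). Slc6a8, which carries creatine although its family holds amino acid carriers, rose to 59.3, 64.8 and 64.1 in VC, against 45.1, 46.5 and 44.7 in control (0.46, SE 0.045, limma adjusted p = 0.0189). In all 3 the lowest VC library stood above the highest control library, at differences of 0.46 to 0.50. Of all tested genes 13.9% separated in this way. These 3 were picked by the test, which makes separation likely, so it adds no support.

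Of 33 matched genes of amino acid sensing upstream of mTORC1, 31 were tested and 1 rose, against 0.429% of all tested genes called higher, with a median of 0.11. At an unadjusted p under 0.05 there were 12 on the higher side, against 9.05% of all tested genes, and 0 on the lower side, against 8.2%. Median exon length was 5784 bases in this list and 5418 in the other transporters, against 3627 for all tested genes. In the longest of 4 equal bins by exon length, 416 of 3443 genes were higher and 121 lower at that threshold. The part of length in these counts was not tested. Flcn, encoding folliculin, which acts on the Rag GTPases at the lysosome, rose to 53.7, 55.3 and 59.7 in VC, against 40.5, 41.2 and 43.8 in control (0.42, SE 0.053, limma adjusted p = 0.0348). Its partners Fnip1 (41.4 ± 1.81 in VC, 32.4 ± 3.71 in control) and Fnip2 (28.9 ± 2.56 in VC, 20.6 ± 2.79 in control), named after their values were seen, did not pass. The differences of Ctns, Slc38a7, Slc6a8 and Flcn stayed between 0.38 and 0.54 with any 1 library left out. All 4 calls were lost (adjusted p of 0.0559 or more) when any library but control replicate 3 was left out, and without control replicate 3 that of Slc38a7 was lost (adjusted p = 0.0716, limma). All 4 were also lost in limma without a trend (adjusted p of 0.0596 to 0.0967), and Slc38a7 and Flcn without the filter (adjusted p of 0.0848 and 0.0755).

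**Figure D4:**
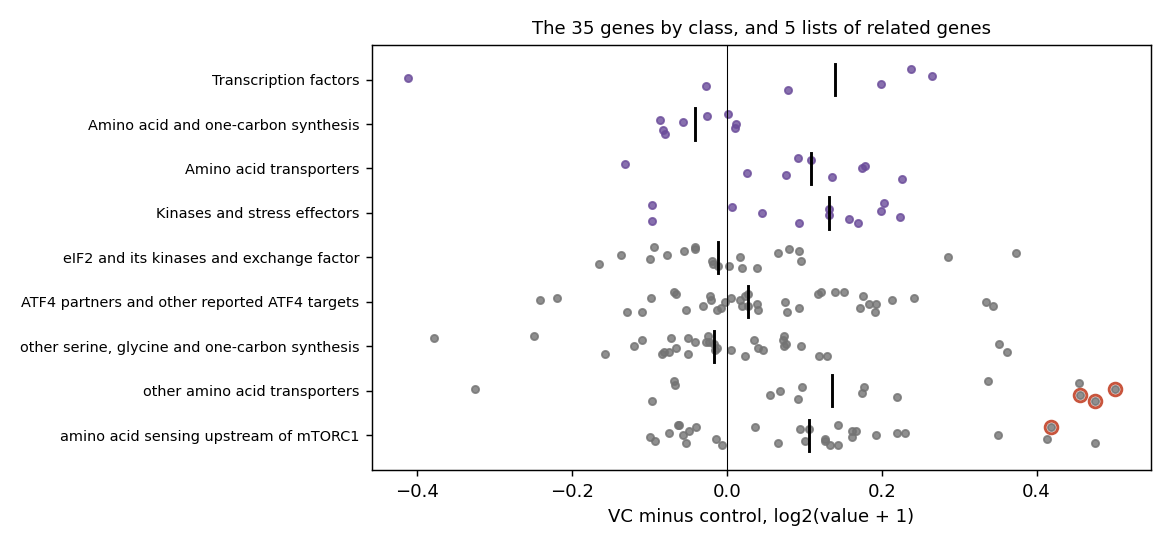
Log2(value + 1) in VC less that in control for each tested gene (points), in the 4 classes of the 35 genes (purple) and the 5 lists of related genes (grey), with a black bar at each median. Red rings mark the genes past limma's adjusted threshold: Ctns, Slc38a7 and Slc6a8 among the other transporters and Flcn in amino acid sensing, and none of the 35.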

How the data were processed

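Libraries were made with a TruSeq kit from Trizol-extracted RNA, per the labels' protocols, and aligned with HISAT2 to GRCm39, per the submitters' processing notes; for the counting tool, annotation and strand setting, the answer is not given in the sources used here. Judged from its values and header, the authors' table holds a normalized signal, like TPM (transcripts per length, scaled to a fixed total) times 1 factor per library. Symbols and exon lengths came from GENCODE M21 (GRCm38), and promoters from RefSeq (GRCm38.p6). Value times exon length gave whole multiples of 1 step within 0.1 read for 98.7% to 98.9% of the values checked. The check covered values above 0 of up to 1000 reads with small rounding error. Reads were recovered with that step for all values, larger ones included.

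Genes that reached 1 in 3 or more libraries were tested on log2(value + 1) in limma 3.58.1 (R 4.3.3; empirical Bayes with trend, two-sided, Benjamini-Hochberg over all genes), without covariates. The procedure was tested on simulated data, but the outcome is not given here and no result above rests on it. The members, classes and related lists were chosen with earlier results of these data known. Genes named are all 35 members and, of each related list, those called or else up to 2 with the smallest p in each direction; others were chosen after their values were seen. A gene that this rule names is not reported here. Entries without a match (Nars1, Kics2 and Samtor) were not analysed here.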

Additional observations from a re-analysis of the deposited data

How the results depend on the processing

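Of 814 repeats for 51 named genes, 745 kept their direction and their side of the threshold. Most of these genes were not called to begin with, so keeping the side mainly meant staying uncalled. Ctns, Slc38a7, Slc6a8 and Flcn, which were called, lost their calls in many of their repeats. The number of genes called, 96 of all tested, was 30 without a filter, 183 with a filter at 5, 217 with equal totals, 6 without a trend, 254 with library weights, 548 by voom and 0 to 82 when 1 library was left out. Members called, 0, became 1 (Ddit3) with equal totals and with library weights. Calls in the eIF2 list, 0, became 1 with the filter at 5, equal totals and library weights and 2 by voom. Calls among other ATF4 targets, 0, became 1 with the filter at 5, quantile normalization and library weights and 2 with equal totals and by voom; among other synthesis genes they became 2 by voom. The 3 calls among other transporters were 0 without a trend and 0 to 2 when 1 library was left out. The 1 sensing call was 0 without a filter and without a trend, 2 with the filter at 5 and quantile normalization, 4 with equal totals, 3 with library weights, 5 by voom and 0 to 1 when 1 library was left out.

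Class medians took up the shift of all genes with equal totals (0.08), to 0.21 for factors, 0.031 for synthesis, 0.18 for transporters and 0.20 for stress effectors. Quantile normalization gave 0.20 for factors, -0.0089 for synthesis and 0.10 for stress effectors, which were at 0.11 with a pseudocount of 5, 0.11 with library weights and 0.089 to 0.16 when 1 library was left out. The synthesis median thus changed sign with equal totals.

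Differences near 0 changed sign. With equal totals Cebpg was at 0.042, Mthfd2 at 0.015 and Aldh18a1 at 0.046; after quantile normalization Aldh18a1 was at 0.012, Pycr1 at -0.039 and Gdf15 at -0.044. Gdf15 was also at -0.0084 with a pseudocount of 0.1, -0.026 with library weights and -0.022 by voom. Leaving out 1 library gave -0.058 to 0.010 for Cebpg, -0.018 to 0.032 for Psph, -0.011 to 0.027 for Shmt2, -0.072 to 0.069 for Pycr1, -0.21 to 0.018 for Nupr1 and -0.13 to 0.22 for Gdf15. The cause of these changes was not tested.

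The labels used here do not say whether replicate numbers pair the samples. Same-numbered deviations correlated at -0.019, -0.011 and 0.0051, which cannot settle it with 3 libraries per group. With a replicate block limma called 0 genes in all (2039 at an unadjusted p under 0.05), hence 0 of the other transporters and 0 of the sensing genes. Gdf15 had 11 to 26 reads per library and Cebpb 83 to 198; the other 33 had 192 or more in every library. For Cebpb 1 library, control replicate 1, stood far above the rest.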
